A study of Arabidopsis thaliana with 12 samples.

Results

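The comparison set all 8 libraries of 2 Arabidopsis thaliana lines that express a rust fungus effector candidate against the 4 libraries of their Control line, and it covers every locus whose level in all 8 effector libraries lay on one side of all 4 Control libraries. Such loci are called separated here, and the level used is the number of counts per 1000000 counts of a library (CPM) after scaling by edgeR's trimmed mean of M-values (TMM). Of 32833 loci, 959 were separated, with 330 above Control, or 1.01%, and 629 below it, or 1.92%. All 3 groups were stable transgenic plants of the accession Col-0 that carry GFP, the green fluorescent protein, and BAR, a herbicide resistance gene. The Control line expresses GFP alone, the second line GFP fused to Mlp37347 and the third GFP fused to Mlp124499, both candidate secreted effectors of the poplar leaf rust fungus Melampsora larici-populina. RNA came from the pooled aerial parts of plants grown on soil to day 15 after germination, kept at 22 °C with 16 h of light per day, and each line gave 4 libraries. Neither the promoter that drives the fusions nor the number of transformation events behind each line is given in the sources used here.

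Plant cells detect microbial molecules with surface receptors and detect effectors with intracellular receptors of the nucleotide-binding, leucine-rich repeat (NLR) kind. Both routes induce salicylic acid, a hormone of defence against pathogens that feed on living cells, and WRKY transcription factors that bind W-box sequences. Effectors are proteins that pathogens deliver into host cells, where many of them act on these routes. Leaf transcripts also follow the circadian clock, in which the morning proteins CCA1 and LHY repress evening genes through a sequence called the evening element, and they follow temperature through the CBF factors.

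Total counts ran from 6645703 to 37378917 in Control, from 12368262 to 24483245 in Mlp37347 and from 10813288 to 14733894 in Mlp124499. Control 1 had the lowest depth, and 57.6% of its trimmed reads were aligned, while the others reached 88.0% to 95.5%. Mlp37347 1, 2 and 3 were close to each other, with a chi-square per degree of freedom of 2.82 to 6.27 against 154 to 208 with Mlp37347 4, and Mlp124499 1 and 2 stood at 6.94. A mate inner distance is deposited for each library and is taken here as the value given to the aligner. It was 110 to 115 bp for Mlp37347 1, 2 and 3, against 50 to 84 bp elsewhere. As a covariate it largely follows the Mlp37347 line, so the parts of both cannot be cleanly told apart. The sources used here do not state that libraries of one line represent separate plantings, so the p-values cover only the spread among these libraries, which may be technical. The leaf markers RBCS1A, CA1, LHCB3, RCA and GLDP1 stood at 526 CPM or more in every library, and the root hair markers RHD6, EXPA7 and COBL9 stood at 0.259 CPM or less. Other root markers reached more, with PRP3 at up to 1.25 CPM, NRT2.1 at up to 3.71 CPM and PYK10 at 102 to 427 CPM. The seed storage gene CRA1 reached 11.8 CPM in Mlp124499 4 and 0.272 CPM or less in all others. In bulk tissue, fewer cells of a type and less RNA per cell cannot be told apart.

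Of the 19090 loci with enough counts to test, 465 rose and 951 fell between Control and the mean of both effector lines (edgeR quasi-likelihood test, adjusted p under 0.05), which is 2.44% and 4.98% of the loci tested and 7.42% in all. The separated loci that could be tested were 319 above Control, 1.67% of the loci tested, and 574 below it, 3.01%, or 4.68% in either direction. Both facts use the same contrast, so their overlap of 213 loci above and 484 below is a description. The median log2 fold change was 0.91 among the separated loci above Control, with a range of 0.21 to 4.96. It was -1.28 among those below Control, with a range of -0.26 to -5.98, and 0.01 over all loci tested. The -5.98 belongs to AT1G61550, which had very few counts in the effector libraries. The other 11 loci above and 55 below did not pass the filter on low counts, their highest mean level was 1.12 CPM, and 4 of those below had 0 counts in all 8 effector libraries. Nearly all separated loci were protein-coding, 329 of 330 above and 622 of 629 below, as were 18737 of the 19090 loci tested.

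The balance of both directions moved with the scaling. Scaling by total counts moved the median of all tested loci by -0.14 on the log2 scale and gave 185 separated loci above and 878 below. A scaling by 11 reference genes chosen from arrays moved it by -0.18 and gave 117 above and 1027 below. Of the 629 loci below Control, 619 and 602 were also below under these scalings, and of the 330 above Control, 190 and 123 were also above. The share of higher loci among all calls was 32.8%, against 18.4% and 14.8% under the same scalings and 44.0% with DESeq2.

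The number of calls also moved with single libraries. Without Control 1, 2 or 3, 256, 217 and 166 loci were called higher, and without Control 2 or 3, 508 and 489 were called lower. Without Mlp37347 1 or 3 the lower calls were 630 and 626, and without Mlp124499 1 or 2 they were 593 and 590. Without Mlp37347 4 the calls were 1085 higher and 1788 lower, and without Mlp124499 4 they were 847 and 1573. Without both libraries numbered 4, 1824 loci were called higher and 2727 lower. Summing the close libraries, Mlp37347 1 to 3 into 1 and Mlp124499 1 and 2 into 1, left 64 higher and 208 lower calls.

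The effector library nearest to Control was most often Mlp124499 4, at 145 of the 319 tested loci above and 222 of the 574 below. Control 4 was the nearest Control library at 118 of the 319 and at 356 of the 574. The separated loci numbered 481 above Control without Control 2, 521 above and 995 below without Control 4, and 747 above and 1056 below without Mlp124499 4. With fewer libraries the rule is easier to meet, so a rise follows from the rule itself, apart from changes in scaling. Over all loci, leaving out a single library gave 995 to 1892 separated loci, against 959 with none left out. The gap, which is the log2 ratio between the nearest effector and Control libraries after adding 0.5 CPM, had a median of 0.13 above and 0.20 below. It reached at least 1, a ratio of 2 between the nearest libraries, at 3 loci above and 26 below.

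The 15 called loci with the widest gap below Control included receptor and enzyme genes and 3 uncharacterized loci. AT1G61550, an S-locus lectin receptor-like kinase gene on chromosome 1, stood at 7.56, 5.89, 10.6 and 6.54 CPM in Control 1 to 4 and between 0 and 0.272 CPM (median 0.0707) in the 8 effector libraries. Its gap of 3.05 was the widest of all tested separated loci called lower, and its log2 fold change was -5.98 ± 0.47 (SE). With so few counts in the effector libraries, the size of this fold change is uncertain. The locus AT1G53625, which the annotation leaves uncharacterized, stood at 15.5, 7.85, 16.2 and 5.68 CPM in Control and between 0.831 and 1.23 CPM (median 1.15) in the effector libraries, a fold change of -3.41 ± 0.27. Every library of both lines stood at 1.23 CPM or less at these loci, while Control stood at 5.68 CPM or more.

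PER4 (AT1G14540), a secreted peroxidase, stood at 11.9, 21.2, 25.9 and 13.8 CPM in Control and between 0.991 and 3.71 CPM (median 1.22) in the effector lines, where the library numbered 4 was the highest of each line. AT5G25260, a membrane protein with an SPFH domain, stood at 34, 33, 55.5 and 18.1 CPM in Control and between 1.99 and 5.44 CPM (median 3.62) in the effector lines. For ARI12 (AT1G05880), a RING protein related to ubiquitin ligases, the Control values were 1.41, 1.64, 3.49 and 1.19 CPM and the effector values lay between 0 and 0.267 CPM (median 0.0864). Mlp37347 1, 2 and 3 held 0 counts of ARI12, so its fitted fold change depends on the prior count and is not given.

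Intracellular receptors of the class with a Toll/interleukin-1 receptor domain (TIR-NBS-LRR) were also among the 15 widest gaps. AT5G41750 stood at 79.6, 72.1, 96.9 and 48.3 CPM in Control and between 12.1 and 18.8 CPM (median 15.5) in the effector lines, a log2 fold change of -2.25 ± 0.18. AT4G11170 stood at 12.2, 8.90, 20.4 and 4.98 CPM in Control and between 0.453 and 1.87 CPM (median 1.29) in the effector lines, with Control 4 the lowest Control library for both genes. The leucine-rich repeat receptor kinase gene AT1G35710 was the most abundant of the 15, at 419.8, 355, 402 and 212 CPM in Control and between 49.8 and 93 CPM (median 71.3) in the effector lines. Its fold change was -2.30 ± 0.21, and the gap between the highest effector library and Control 4 was 1.18.

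PBS3 (AT5G13320) encodes the enzyme that joins glutamate to isochorismate on the way to salicylic acid. It stood at 26.9, 28.8, 63.3 and 18.3 CPM in Control, at 2.94, 2.77, 3.07 and 3.03 CPM in Mlp37347 1 to 4 and at 3.08, 2.47, 5.88 and 7.42 CPM in Mlp124499 1 to 4. The indole glucosinolate methyltransferase gene IGMT2 (AT1G21120) stood at 45, 52.3, 68 and 50.1 CPM in Control and between 5.67 and 19.7 CPM (median 11.3) in the effector lines. The remaining 5 of the 15 were AT1G49000 and AT4G08555, both uncharacterized, the metalloendopeptidase gene AT3G57460, the cysteine-rich transmembrane protein gene AT1G56060 and the E1-E2 type ATPase gene AT3G63380. Their fold changes ran from -3.38 ± 0.36 for AT1G56060 to -2.05 ± 0.18 for AT1G49000. The adjusted p of a difference between both effector lines was 0.290 or higher for each of the 15 (edgeR).

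Above Control, the 15 widest gaps belonged to genes of varied annotation. OEP16-1 (AT2G28900), a channel protein of the outer plastid envelope, stood at 15.2, 23.1, 17.4 and 22.4 CPM in Control, at 87.1, 95.1, 88.6 and 128 CPM in Mlp37347 1 to 4 and at 283, 272, 426 and 73.8 CPM in Mlp124499 1 to 4. Its log2 fold change was 3.05 ± 0.39, and its gap of 1.66 was the widest above Control. COR15B (AT2G42530), a protein that protects chloroplast membranes in the cold, stood at 8.07, 3.53, 2.48 and 2.18 CPM in Control, at 25.1, 22.7, 23.8 and 43.5 CPM in Mlp37347 and at 421, 314, 922 and 24 CPM in Mlp124499. Mlp124499 1, 2 and 3 thus stood far above Mlp124499 4, which lay with the Mlp37347 libraries.

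A pair of neighbouring genes on chromosome 5, AT5G62360 and AT5G62350, encode inhibitors of invertase or pectin methylesterase. The first stood at 2.82, 2.09, 1.07 and 1.48 CPM in Control and between 6.59 and 34.1 CPM (median 19.3) in the effector lines, and the second at 56.6, 73, 53.1 and 68.2 CPM in Control and between 139 and 318 CPM (median 215) in the effector lines. Their fold changes were 3.34 ± 0.47 and 1.83 ± 0.24. ADS2 (AT2G31360), an acyl-lipid desaturase, stood at 24.1, 25.4, 26.8 and 29.3 CPM in Control and between 55.2 and 145 CPM (median 121) in the effector lines, with Mlp124499 4 the lowest of them. AT4G30650, annotated as a low temperature and salt responsive protein, stood at 0.256, 5.76, 3.22 and 4.18 CPM in Control and between 10.7 and 148 CPM (median 23.6) in the effector lines, with Control 1 lowest and Mlp124499 1 to 3 highest.

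The cytochrome P450 gene CYP76C1 (AT2G45560), whose enzyme oxidizes monoterpene alcohols, stood at 12.2, 12, 9.25 and 12.6 CPM in Control and between 25.1 and 77 CPM (median 33.1) in the effector lines. CYP77B1 (AT1G11600), another cytochrome P450 gene, stood at 3.59, 4.32, 3.15 and 5.42 CPM in Control and between 9.93 and 33.4 CPM (median 14.1) in the effector lines. The flowering repressor gene RAP2.7 (AT2G28550) varied little within groups, at 36.6, 42.4, 44.2 and 40.4 CPM in Control and between 72.9 and 109 CPM (median 82) in the effector lines, a fold change of 1.04 ± 0.13. The other 6 of the 15 were IGMT5, the mitochondrial carrier gene APC1, the knottin gene AT2G43535, the uncharacterized AT1G30250, the PLAT domain gene PLAT1 and AT5G16380. In AT1G30250 the library Mlp37347 4 stood at 63.8 CPM and the other effector libraries at 11.4 to 18.8 CPM, and its call was lost without Control 1, 3 or 4. IGMT5 (AT1G76790) stood at 0.654 to 1.58 CPM in Control and 3.29 to 12.7 CPM in the effector lines, opposite in direction to IGMT2 of the same family. Sequence-alike members of such families may share reads, since the handling of reads with several alignments is not given in the sources used here.

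**Figure D1:**
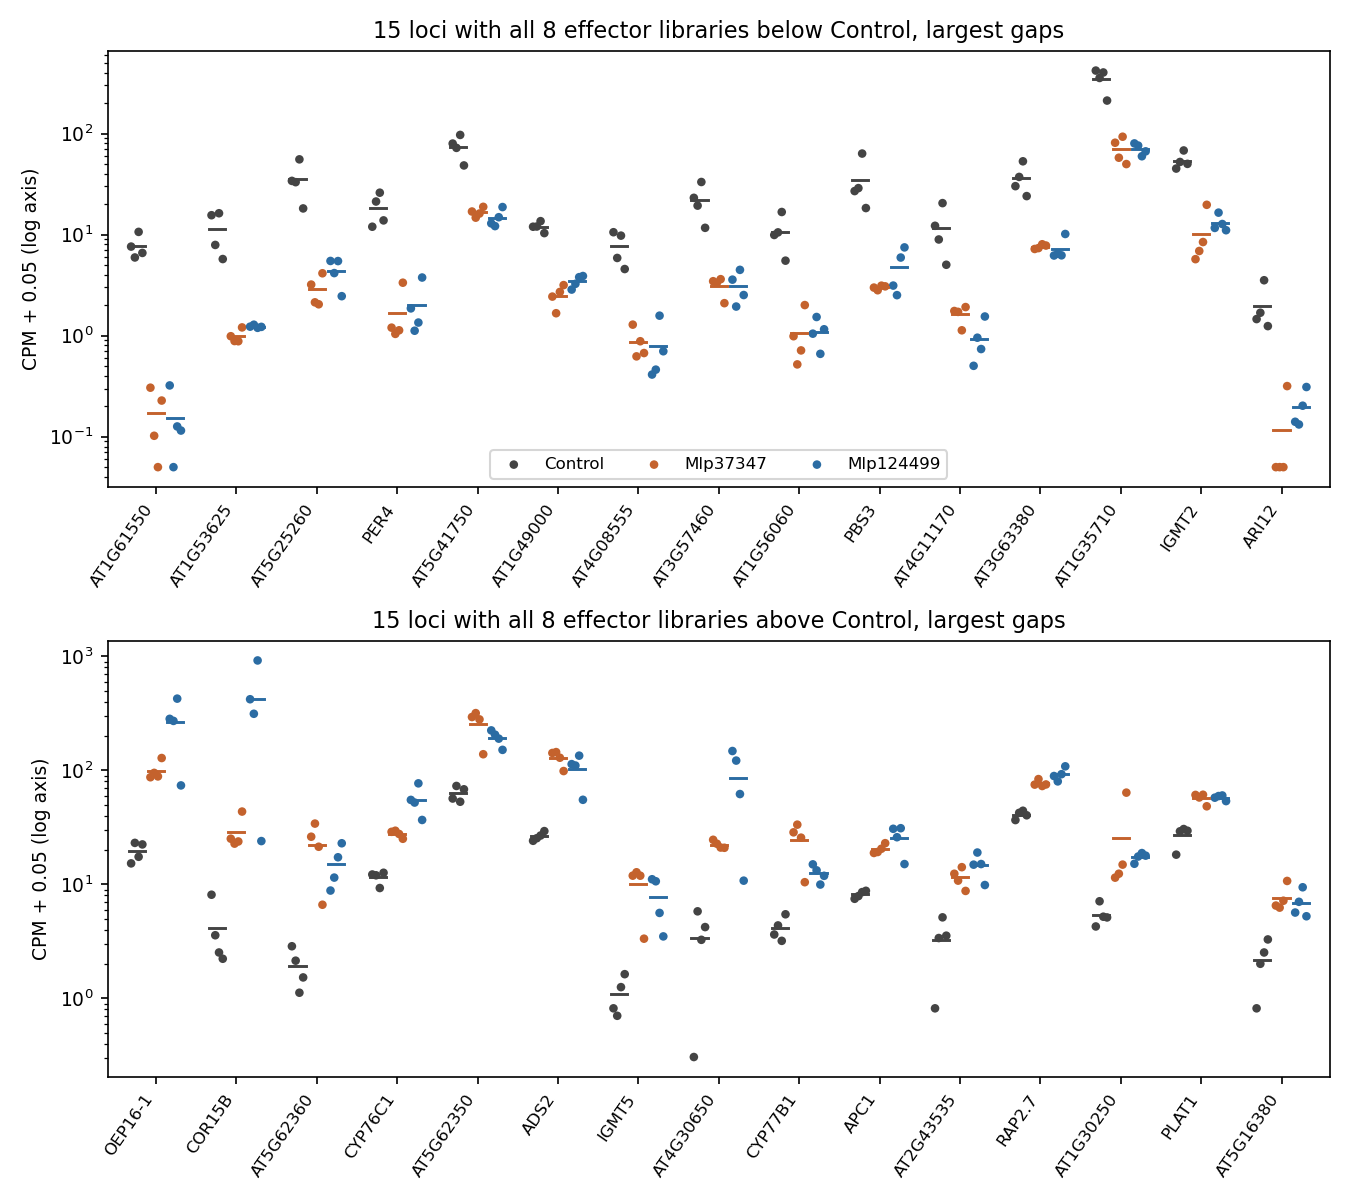
Level of the 15 loci with the widest gap below Control and the 15 with the widest gap above it, in each of the 12 libraries. The vertical axis is CPM plus 0.05 on a log scale, points are libraries coloured by line and bars are group means. Control points of AT1G61550 lie at 5.89 to 10.6 CPM, above every effector point, and the points of COR15B spread widest within the effector lines.

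Promoters of separated loci are shown because the shares of short motifs were unlike above and below Control. The printed windows were picked among named separated loci for holding the marked motif, with no other annotated gene in the window or gene body. They are therefore not typical of all windows of their direction. Windows of 250 bases before each gene's start were read from the RefSeq TAIR10.1 sequence by locus tag, for 18736 of the tested loci, 573 of the 574 below Control and all 319 above. The deposited counts carry no coordinates, so the positions are those of RefSeq. The first 2 windows belong to genes with wide gaps below Control, and capitals mark TTGAC or its reverse complement GTCAA, the core of the W-box to which WRKY factors bind. The next 3 belong to genes above Control, and capitals mark AATATCT or its reverse complement AGATATT, the core of the evening element. Each window has only the motif of its direction marked, and the PSBQ2 window also holds unmarked TTGAC and GTCAA. PSBQ2 was separated without a call in edgeR. The windows lie at chr5:16693582-16693831, plus strand for AT5G41750 and at chr4:5447799-5448048, plus strand for AT4G08555. They lie at chr5:25040290-25040539, plus strand for AT5G62360, at chr4:14953954-14954203, plus strand for AT4G30650 and at chr4:2673244-2673493, minus strand for PSBQ2, and each is printed 5′ to 3′ on the strand of its gene.
AT5G41750: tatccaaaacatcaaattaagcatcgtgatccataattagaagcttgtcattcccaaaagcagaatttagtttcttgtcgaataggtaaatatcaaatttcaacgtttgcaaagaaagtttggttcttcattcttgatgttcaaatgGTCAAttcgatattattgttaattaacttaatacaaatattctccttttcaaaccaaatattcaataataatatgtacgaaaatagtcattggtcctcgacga
AT4G08555: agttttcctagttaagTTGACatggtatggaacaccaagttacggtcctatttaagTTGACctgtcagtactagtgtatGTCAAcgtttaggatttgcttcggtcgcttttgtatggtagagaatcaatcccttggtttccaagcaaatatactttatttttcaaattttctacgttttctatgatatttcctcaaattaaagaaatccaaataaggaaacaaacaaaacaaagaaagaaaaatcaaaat
AT5G62360: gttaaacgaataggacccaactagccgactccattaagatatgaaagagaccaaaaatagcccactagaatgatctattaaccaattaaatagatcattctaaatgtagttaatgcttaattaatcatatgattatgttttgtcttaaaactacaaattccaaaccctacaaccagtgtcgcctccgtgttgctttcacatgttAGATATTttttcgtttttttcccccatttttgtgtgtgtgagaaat
AT4G30650: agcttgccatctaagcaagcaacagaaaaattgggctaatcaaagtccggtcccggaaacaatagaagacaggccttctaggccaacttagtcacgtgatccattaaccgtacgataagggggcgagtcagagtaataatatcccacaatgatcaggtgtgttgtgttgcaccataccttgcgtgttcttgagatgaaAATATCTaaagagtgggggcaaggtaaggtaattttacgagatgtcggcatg
PSBQ2: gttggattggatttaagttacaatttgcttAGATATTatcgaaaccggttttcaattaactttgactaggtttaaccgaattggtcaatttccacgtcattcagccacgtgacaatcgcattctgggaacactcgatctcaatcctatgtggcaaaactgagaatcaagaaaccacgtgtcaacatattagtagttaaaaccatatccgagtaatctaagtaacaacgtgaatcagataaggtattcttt

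The W-box core TTGAC, searched on both strands, was in 343 of 573 windows below Control, or 59.9%, in 35.1% of those above and in 44.8% of all tested. Among the 15 widest gaps below Control 12 windows held it, and among the 15 above 4 did. It was in 13 of 30 windows of the salicylic acid list, or 43.3%, and in 23 of 27 of the pattern immunity list, or 85.2%. The evening element core AATATCT was in 77 of 319 windows above Control, or 24.1%, in 7.85% of those below and in 10.2% of all. Among the 15 widest gaps 4 windows above Control and 3 below held it. CCGAC, the core of the cold response element bound by CBF factors, was in 17.2% above, 11% below and 13% of all windows. For TGACG, bound by TGA factors and able to overlap the W-box core, the shares were 19.4% above, 21.6% below and 19.4% of all. The G-box CACGTG was in 10.7% above, 7.16% below and 7.48% of all. Median GC content was 30.8% above, 31.2% below and 31.2% over all windows. A match of letters describes the window only and shows no binding.

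**Figure D2:**
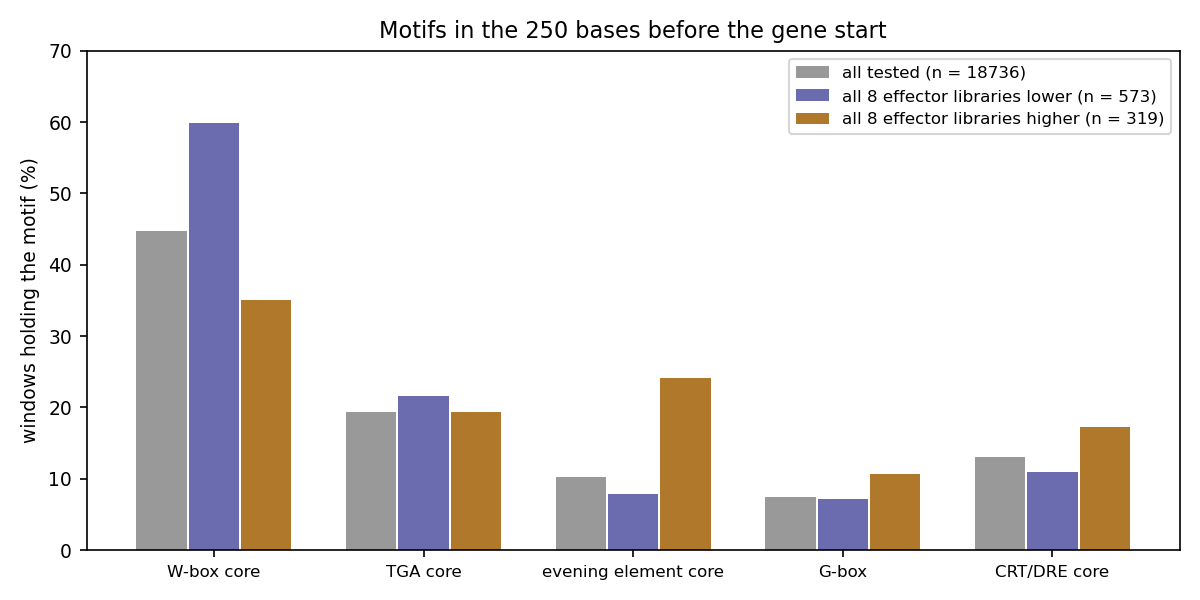
Share of 250-base promoter windows that hold each of 5 motifs on either strand, in percent, for all tested loci, separated loci above Control and separated loci below it. The W-box core stands at 59.9% below Control against 44.8% of all windows, and the evening element core at 24.1% above Control against 10.2%.

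Most listed genes of salicylic acid defence fell. Of 30 listed genes, all tested, 21 fell (edgeR adjusted p under 0.05), against 4.98% of all loci tested. Of the 30, 11 were separated below Control, against 3.01% of all loci tested. The list's median log2 fold change was -1.74 against 0.01 over all loci tested. No listed gene rose in edgeR, where 0 were higher and 26 lower at an unadjusted p under 0.05, and DESeq2 called 0 higher and 22 lower. The lower calls numbered 14 to 24 when single libraries were left out, 12 with the close libraries summed and 7 with the inner distance as a covariate. Here and in the lists below, that covariate cannot be cleanly told apart from the Mlp37347 line. The lists were chosen with earlier results of these data known.

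The synthesis genes ICS1, EDS5 and PBS3 lay below Control in every effector library. EDS5 (AT4G39030), the plastid exporter of isochorismate, stood at 22.3, 20.4, 42.2 and 11.3 CPM in Control and between 3.28 and 7.55 CPM (median 5.23) in the effector lines, a fold change of -2.14 ± 0.30. ICS1 (AT1G74710), isochorismate synthase, stood at 75.6, 46.8, 84 and 30.8 CPM in Control and between 9.08 and 27 CPM (median 19.5) in the effector lines, a fold change of -1.63 ± 0.27. The regulators SARD1, CBP60G, EDS1 and PAD4, which drive or sense this synthesis, were separated too, with fold changes of -2.13, -1.83, -1.31 and -2.01. WRKY70 (AT3G56400), a transcription factor downstream of salicylic acid, stood at 117, 152, 182 and 85.4 CPM in Control, 30.6, 36.2, 25.7 and 12.3 CPM in Mlp37347 and 39.6, 33.7, 56.7 and 56.3 CPM in Mlp124499. Control 4 was the lowest Control library for WRKY70 and EDS5, and it still lay above every effector library.

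Genes further downstream were not all separated. The pathogenesis-related gene PR1 (AT2G14610) stood at 51.3, 25.1, 47.5 and 4.44 CPM in Control, 26.7, 27.3, 36.1 and 1.96 CPM in Mlp37347 and 12.4, 9.95, 16.6 and 8.46 CPM in Mlp124499, and its groups overlapped (log2 fold change -0.95 ± 0.60, edgeR adjusted p = 0.421). PR2 (AT3G57260), a glucanase, stood at 119, 50.5, 52.4 and 9.36 CPM in Control and between 4.27 and 25.3 CPM (median 15.4) in the effector lines (adjusted p = 0.0363, edgeR). Control 4 lay within the effector range for both. The receptor gene NPR1 (AT1G64280) stood at 63.3, 61.1, 64.5 and 47.6 CPM in Control and between 39.3 and 54.7 CPM (median 44.3) in the effector lines, with -0.39 ± 0.13 as its fold change (edgeR adjusted p = 0.0814). PR1, PR2, NPR1 and the other list members named here that were not separated were chosen after their values were seen. The mean level of the list, on the log2 scale relative to the Control mean, was 0.21, 0.14, 0.50 and -0.85 in Control 1 to 4, -1.92 to -1.26 in Mlp37347 and -1.63 to -1.10 in Mlp124499. Control 4 thus stood apart from the other Control libraries and still above every effector library.

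**Figure D3:**
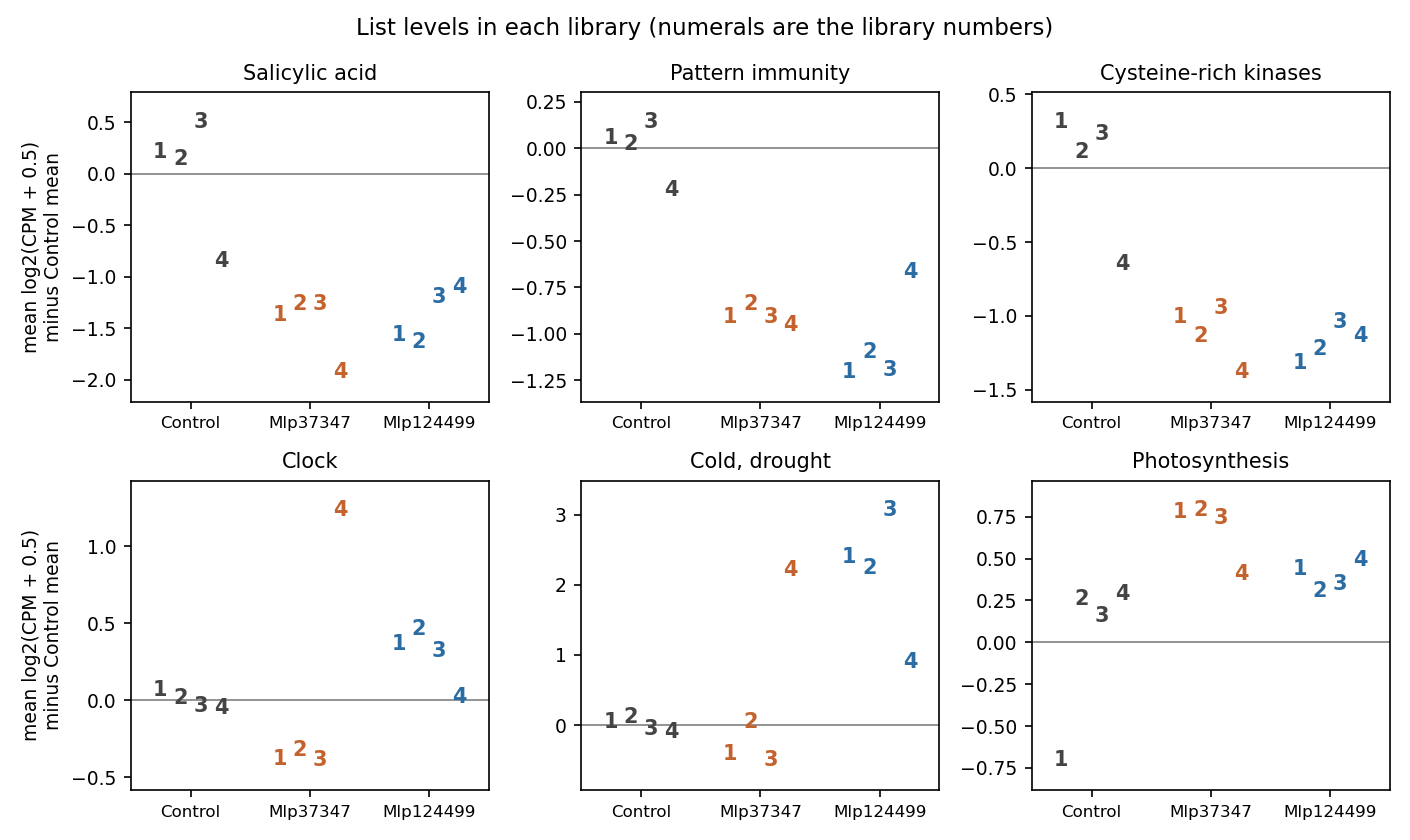
Mean log2(CPM + 0.5) of the tested members of 6 gene lists in each of the 12 libraries, minus the mean of the 4 Control libraries. Numerals are library numbers, placed by line. Salicylic acid genes stand at -1.10 or lower in all 8 effector libraries, while cold and drought genes spread from -0.50 to 3.06 among them.

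Pattern-triggered immunity is the response to microbial molecules at the cell surface. Of its 28 listed genes 27 were tested, and 13 fell in edgeR, against 4.98% of all loci tested. In the list 14 did not pass and 11 were separated below Control, against 3.01% of all loci tested. The list's median log2 fold change was -0.91. None rose in edgeR, with 0 higher and 17 lower at an unadjusted p under 0.05, and DESeq2 called 0 higher and 16 lower. The lower calls numbered 10 to 19 when single libraries were left out, 4 with the close libraries summed and 8 with the inner distance as a covariate.

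Among the surface receptors, RLP23 (AT2G32680), which detects a peptide of microbial NLP proteins, stood at 61.4, 42.6, 40.6 and 15.5 CPM in Control and between 3.11 and 9.51 CPM (median 7.23) in the effector lines, a fold change of -2.58 ± 0.30. LORE (AT1G61380), a receptor for bacterial fatty acid metabolites, stood at 68, 73.1, 66.4 and 69 CPM in Control and between 17.8 and 39.4 CPM (median 25.5) in the effector lines, a fold change of -1.44 ± 0.14. The flagellin receptor gene FLS2 (AT5G46330) stood at 52.4, 77.9, 62.9 and 74.1 CPM in Control and between 34.2 and 69.4 CPM (median 53.7) in the effector lines, and its groups overlapped (edgeR adjusted p = 0.379). RLP23 and LORE were thus separated from Control, and FLS2 was not.

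Among the response genes, NHL10 (AT2G35980), a marker of early immune signalling, stood at 12.6, 10.5, 16.4 and 4.20 CPM in Control and between 0.678 and 2.85 CPM (median 1.45) in the effector lines, a fold change of -2.85 ± 0.40. FRK1 (AT2G19190), a kinase gene induced by flagellin, stood at 28.2, 33, 31.8 and 13.4 CPM in Control, 2.81, 5.27, 4.32 and 9.26 CPM in Mlp37347 and 12, 15.3, 12.1 and 5.21 CPM in Mlp124499 (log2 fold change -1.78 ± 0.33, edgeR adjusted p = 0.00601). FRK1 was not separated, because Control 4 lay below Mlp124499 2. The transcription factor genes WRKY40 and WRKY53 were separated, with fold changes of -1.76 ± 0.26 and -1.51 ± 0.24. The ubiquitin ligase genes PUB23 and PUB24, which damp this response, were also below Control, at -1.08 ± 0.23 and -1.17 ± 0.24, as was the kinase gene MPK3 at -0.90 ± 0.21.

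Cysteine-rich receptor-like kinases (CRKs) are a family with many members that salicylic acid induces. All 27 listed members were tested, and 16 fell in edgeR, against 4.98% of all loci tested. Of the 27, 11 were separated below Control, against 3.01% of all loci tested, and the list's median fold change was -1.24. None rose in edgeR, with 0 higher and 22 lower at an unadjusted p under 0.05, and DESeq2 called 0 higher and 16 lower. CRK39 (AT4G04540) stood at 7.30, 9.29, 15.4 and 4.82 CPM in Control and between 0.332 and 2.86 CPM (median 0.949) in the effector lines, with Mlp124499 4 the highest of them. CRK28 (AT4G21400), which overlaps CRK29, stood at 20.0, 19.6, 25.2 and 25.7 CPM in Control and between 6.26 and 12.8 CPM (median 8.81) in the effector lines. CRK38 (AT4G04510) was scarce, at 0.934 to 2.95 CPM in Control and 0 to 0.511 CPM in the effector lines. CRK36, CRK37, CRK38 and CRK39 are neighbours on chromosome 4 and were all below Control, the longest run of adjacent separated loci. The lower calls of the list numbered 14 to 17 when single libraries were left out, 8 with the close libraries summed and 6 with the inner distance as a covariate.

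Adjacent separated loci of one direction were commoner below Control, with 88 of 629 loci or 14%, against 14 of 330 or 4.24% above. Loci below Control were also more numerous, at 1.92% of all loci against 1.01% above, which by itself gives more neighbours. The share of neighbours to expect from these numbers was not computed. The other runs below Control were of 3 loci each, such as the S-locus lectin kinase genes AT1G61360, AT1G61370 and AT1G61380 on chromosome 1, the last of which is LORE. Another run on chromosome 1 held AT1G30400, AT1G30410 and AT1G30420, annotated as multidrug resistance-associated proteins. Neighbours of this kind often arose by tandem duplication and can share reads. A gene overlapping another one was no commoner among separated loci, at 26.7% below and 26.4% above against 32.0% of all tested. Of the loci named by the selection rules, AT1G61550, AT5G25260, COR15B, IGMT5, APC1, PORB, LNK2, CRK28, RPP1, RLP23, EDS5, VAB3, GAUT15, AT3G13070, AT5G54170 and XIH overlap another locus in the annotation. So do the list members SARD1, NPR1, FLS2, FRK1, WRKY40, WRKY53, MPK3, PUB23, CYP71A13, LUX, FKF1, LNK3, CBF3, HSP101, ERDJ3A, TCH3 and TUA5 and the markers LHCB3, RCA, CA1, GLDP1, EXPA7 and PYK10. Since strand use in counting is not given in the sources used here, the values of these genes are uncertain.

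Among intracellular receptors, 15 of the 46 tested loci annotated as TIR-NBS-LRR disease resistance proteins were separated below Control, or 32.6%, and 0 above. Of the 18 tested S-locus lectin kinase loci, 6 or 33.3% were below, and of the 38 ankyrin repeat loci 6 were below and 1 above. These families were picked after their counts were seen, and all tested loci give 3.01% below. The fixed list of 19 named NLR genes, of which 18 were tested, had a median fold change of -0.49. In the list 3 members were called lower, against 4.98% of all loci tested, and 4 were separated below Control, against 3.01%. None rose in edgeR, with 0 higher and 12 lower at an unadjusted p under 0.05, and DESeq2 called 0 higher and 7 lower.

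RPP1 (AT3G44480), a receptor for a downy mildew effector, stood at 149, 149, 146 and 179.7 CPM in Control and between 70.5 and 117 CPM (median 80.8) in the effector lines, a fold change of -0.83 ± 0.14. The locus AT3G44485 overlaps RPP1. CHS3 (AT5G17890), an NLR protein with a zinc-binding LIM domain, stood at 93, 64.3, 65.1 and 63.3 CPM in Control and between 47.9 and 57.2 CPM (median 50.7) in the effector lines. RPS6 (AT5G46470), a receptor for a bacterial effector, stood at 96.1, 101, 93.6 and 93.4 CPM in Control and between 52.5 and 86.5 CPM (median 76.6) in the effector lines. CHS3 and RPS6 were separated but not past the threshold in edgeR (adjusted p = 0.0517 and 0.17). The number of list members called lower was 1 without Control 2, 8 without Mlp37347 4 and 6 without Mlp124499 4. In edgeR it was 0 with the close libraries summed and 0 without Control 1 and 4 together, and RPP1 lost its call in both.

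**Figure D4:**
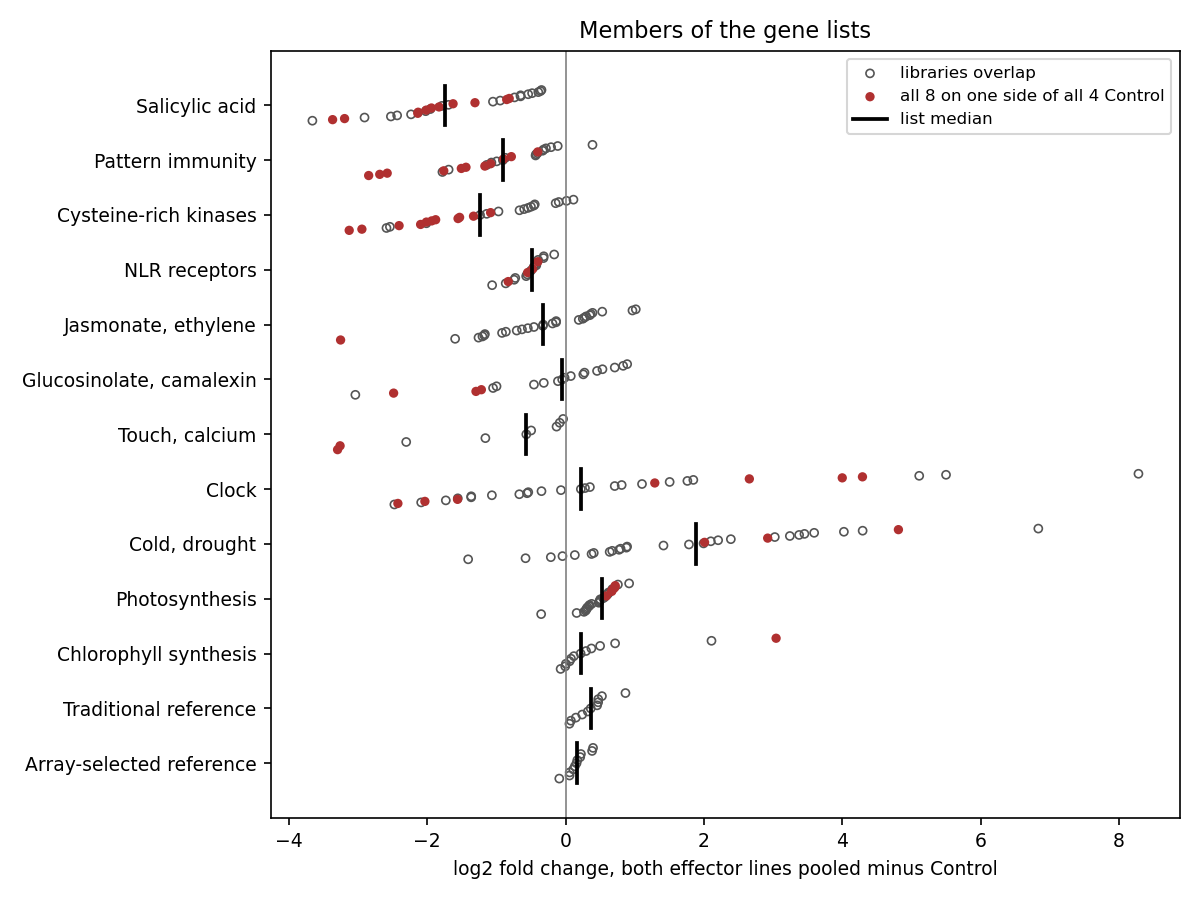
Log2 fold change of both effector lines pooled against Control for each tested member of 13 gene lists. Points are genes, filled where the gene was separated, and the bar in each row is the list's median. All 30 salicylic acid genes lie left of 0, and the photosynthesis genes cluster between -0.35 and 0.92.

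Jasmonate and ethylene genes act against feeding insects and pathogens that kill cells. Of 27 tested, 4 fell (LOX4, JAZ1, JAZ6 and PDF1.2A) and 1 rose (AOC2) in edgeR, against 4.98% and 2.44% of all loci tested. The list's median fold change was -0.32. Separated was 1 member, a share near the 4.68% of all loci tested, and 1 member fell with the close libraries summed. PDF1.2A (AT5G44420), a defensin gene, stood at 30.0, 47.4, 52.9 and 11 CPM in Control, 1.32, 0.313, 1.66 and 3.38 CPM in Mlp37347 and 10.8, 9.46, 8.48 and 5.53 CPM in Mlp124499. Control 4 was only just above the Mlp124499 libraries. The list's lower calls were 2 without Control 1 or Mlp37347 3, 1 without Control 2, Control 3, Mlp37347 1, Mlp124499 1 or Mlp124499 2, 10 without Mlp37347 4 and 8 without Mlp124499 4. Its higher calls were 2 without Mlp37347 4 and 0 without Control 1, 2 or 4, Mlp37347 1, 2 or 3, or Mlp124499 1, 2 or 3.

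Camalexin, the main antimicrobial indole compound of Arabidopsis, and indole glucosinolates share precursors. Of 19 tested genes of both pathways 4 fell in edgeR, against 4.98% of all loci tested. Of the 19, 3 were separated below Control, against 3.01% of all loci tested, and the list's median fold change was -0.05. None rose in edgeR, with 0 higher and 6 lower at an unadjusted p under 0.05, and DESeq2 called 0 higher and 5 lower. PAD3 (AT3G26830), the last enzyme of camalexin synthesis, stood at 59.3, 41.1, 73.9 and 19 CPM in Control and between 2.56 and 17.6 CPM (median 7.88) in the effector lines, a fold change of -2.49 ± 0.47. MYB51 (AT1G18570), an activator of indole glucosinolate genes, stood at 43.7, 66, 63.6 and 39.1 CPM in Control and between 19.1 and 23.6 CPM (median 22) in the effector lines, a narrow range among the 8. CYP81F2 (AT5G57220), which modifies indole glucosinolates, stood at 34.1, 33.4, 36.7 and 29.7 CPM in Control and between 9.37 and 28.5 CPM (median 11.8) in the effector lines, and its call was lost without Control 2 or 3. The fourth that fell was the camalexin gene CYP71A13, which was not separated. Without Control 3 or with the inner distance as a covariate the list had 2 lower calls, with the close libraries summed it had 1, and without Mlp37347 4 it had 4 higher ones.

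Calcium sensor genes that respond to touch and wounding formed a short list. Of 9 tested, 4 fell in edgeR (TCH3, CML37, CML41 and CML42), against 4.98% of all loci tested. Of the 9, 2 were separated below Control, against 3.01% of all loci tested, and the list's median fold change was -0.57. None rose, with 0 higher and 4 lower at an unadjusted p under 0.05, and DESeq2 called 0 higher and 4 lower. CML37 (AT5G42380), a calmodulin-like protein, stood at 18.6, 6.67, 10.9 and 4.85 CPM in Control and between 0.445 and 2.29 CPM (median 0.838) in the effector lines. CML42 (AT4G20780) stood at 8.20, 7.26, 8.31 and 11.4 CPM in Control, 6.56, 4.59, 7.14 and 2.58 CPM in Mlp37347 and 0.181, 0.164, 0 and 0.260 CPM in Mlp124499. The Mlp37347 libraries of CML42 lay just below Control and the Mlp124499 libraries near 0.

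Clock genes moved in both directions. Of 31 tested, 9 rose and 6 fell in edgeR, against 2.44% and 4.98% of all loci tested. In the list 4 were separated above Control and 3 below, against 1.67% and 3.01% of all loci tested. The median fold change was 0.22. Those that rose were the evening and night genes PRR5, PRR3, GI, ELF4, LUX, FKF1 and CHE with the clock-controlled RNA-binding genes GRP7 and GRP8, and those that fell were LHY, RVE8, RVE2, LNK2, LNK3 and CDF2. GI (AT1G22770), an evening protein of the clock and of flowering, stood at 13.2, 16.9, 18 and 18.1 CPM in Control, 83.9, 87.5, 74.3 and 208 CPM in Mlp37347 and 142, 131, 87.9 and 25.1 CPM in Mlp124499. LNK2 (AT3G54500), a morning coactivator, stood at 1013, 1151, 1281 and 1009 CPM in Control, 243, 223, 224 and 709.5 CPM in Mlp37347 and 320.1, 332, 239 and 734 CPM in Mlp124499. CDF2 (AT5G39660), a repressor of flowering genes, stood at 121, 75.6, 62.6 and 76.2 CPM in Control, 12.4, 13.5, 16 and 48.3 CPM in Mlp37347 and 12.2, 17, 12.9 and 32.3 CPM in Mlp124499. In LNK2 and CDF2 the libraries numbered 4 of both lines lay nearest to Control.

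The core morning gene LHY (AT1G01060) was not separated, at 459, 519, 512 and 376 CPM in Control, 22.2, 19.4, 24 and 92.9 CPM in Mlp37347 and 81.9, 91.9, 65.1 and 472 CPM in Mlp124499 (fold change -2.48 ± 0.54, edgeR adjusted p = 0.0139). Mlp124499 4 lay within the Control range of LHY. CCA1 (AT2G46830), its partner, stood at 349, 333, 363 and 266 CPM in Control, 43.3, 42.5, 45.5 and 137 CPM in Mlp37347 and 57.6, 65.7, 47.6 and 409 CPM in Mlp124499, and missed the threshold (edgeR adjusted p = 0.0675). The call of LNK2 was lost without Control 2 or 3. With the close libraries summed 4 members rose and 0 fell in edgeR, without Control 1 and 4 together 3 rose and 0 fell, and with the inner distance as a covariate 12 rose and 2 fell. The list's lower calls were 3 without Control 2 or 3 and 13 without Mlp37347 4, and its median was -0.10 without Mlp37347 4. The hour of harvest of each library is not given in the sources used here, and its part in these levels was not tested.

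Some cold and drought genes rose. Of 30 tested, 7 rose (CBF1, CBF2, CBF3, COR15A, COR15B, COR413-PM1 and ERD7) and 1 fell (ZAT12) in edgeR. Over all loci tested 2.44% rose and 4.98% fell. In the list 3 were separated above Control, against 1.67% of all loci tested, and the median fold change was 1.89. ERD7 (AT2G17840), a protein of the response to dehydration and cold, stood at 30.2, 27.5, 24.1 and 19.1 CPM in Control, 39.1, 49.5, 39.3 and 132 CPM in Mlp37347 and 147, 149, 267 and 71 CPM in Mlp124499. COR413-PM1 (AT2G15970), a cold-induced membrane protein, stood at 23.2, 80.9, 48.4 and 57.7 CPM in Control, 127, 121, 131 and 807 CPM in Mlp37347 and 774, 689, 592 and 87.6 CPM in Mlp124499. CBF3 (AT4G25480), an activator of cold genes, stood at 0.513, 0.523, 0.536 and 0.104 CPM in Control, 0.469, 0.835, 0.332 and 14.7 CPM in Mlp37347 and 13.2, 13, 24.5 and 4.88 CPM in Mlp124499. In Mlp37347 the library numbered 4 was the highest for all 3 genes, and for CBF3 Mlp37347 1 and 3 lay within the Control range. CBF1 had 3 counts in all 4 Control libraries together, so no fold change is given for it.

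The list's mean level relative to Control was -0.50 to 0.05 on the log2 scale in Mlp37347 1 to 3 and 2.21 in Mlp37347 4. It was 2.39, 2.25, 3.06 and 0.90 in Mlp124499 1 to 4. The higher calls were 4 without Control 1, 2 without Control 2, 3 or 4, 14 without Mlp37347 4 and 16 without Mlp124499 4. The lower call was lost without Control 1, 2, 3 or 4, Mlp37347 1 or 3, or Mlp124499 1, 2 or 3. With the close libraries summed 4 members rose, without Control 1 and 4 together 1 did, and with the inner distance as a covariate 16 did. COR413-PM1 lost its call without any one Control library, Mlp124499 1 or Mlp124499 2.

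Nuclear genes of the photosystems stood slightly above Control without passing the test. Of 28 tested, 6 were separated above Control, against 1.67% of all loci tested. In the list 27 had a fold change above 0, with a median of 0.52, but edgeR called 0 members. At an unadjusted edgeR p under 0.05, 15 were higher and 0 lower, and DESeq2 called 13 higher and 0 lower. PSBQ2 (AT4G05180), a subunit of the oxygen-evolving complex, stood at 609, 1594, 1409 and 1584 CPM in Control and between 1847 and 2297 CPM (median 2084) in the effector lines (edgeR adjusted p = 0.115). LHCA2 (AT3G61470), an antenna protein of photosystem I, stood at 1115, 3327, 3035 and 3482 CPM in Control and between 3951 and 4862 CPM (median 4633) in the effector lines (edgeR adjusted p = 0.133). PSBO1 (AT5G66570), another subunit of the oxygen-evolving complex, stood at 2442, 4417, 3859 and 4295 CPM in Control and between 4734 and 7207 CPM (median 5697) in the effector lines (edgeR adjusted p = 0.0913). Control 1 was the lowest library for all 3 genes. Its mean level over the list was -0.70 on the log2 scale relative to the Control mean, against 0.16 to 0.29 in Control 2 to 4 and 0.31 to 0.79 in the effector libraries. Under scaling by array-chosen reference genes 2 members were separated above Control, and edgeR called 5 without Mlp37347 4 and 2 without Mlp124499 4.

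Of 13 chlorophyll synthesis genes 2 rose in edgeR, PORA and PORB, against 2.44% of all loci tested, and the list's median was 0.22. PORB (AT4G27440), the light-dependent protochlorophyllide oxidoreductase of green tissue, stood at 132, 178, 132 and 222 CPM in Control, 2210.2, 2373, 2050.4 and 761 CPM in Mlp37347 and 1473, 1191, 1099 and 294 CPM in Mlp124499, a fold change of 3.04 ± 0.45. The lowest effector value was again Mlp124499 4, and AT4G27450 overlaps PORB. PORA (AT5G54190), the form of dark-grown seedlings, stood at 4.87, 9.36, 3.62 and 8.02 CPM in Control, 15.8, 15.3, 14.7 and 9.08 CPM in Mlp37347 and 89.9, 71.8, 63.3 and 5.92 CPM in Mlp124499, with overlapping groups. The higher calls were 4 without Mlp37347 4 and 1 without any one Control library, Mlp37347 1, 2 or 3, or Mlp124499 1, 2 or 3. 

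The shares of heat shock and folding genes called lower stood above the 4.98% of all loci tested, and that of iron genes near it. Of 6 tested heat shock genes 3 fell (HSP90.1, HSP101 and HSP70-4). Of 13 genes of protein folding in the endoplasmic reticulum 3 fell (BIP3, CRT3 and ERDJ3A). Separated was 0 of either list, against 4.68% of all loci tested. With the close libraries summed 1 heat shock gene and 0 folding genes fell in edgeR, and with the inner distance as a covariate 0 of either did. The heat shock calls were 1 without Control 1, Control 3, Mlp37347 3 or Mlp124499 2 and 5 without Mlp124499 4. The folding calls were 1 without Control 1, 2 or 3, Mlp37347 2 or 3, or Mlp124499 1 or 2, and 1 higher call appeared without either library numbered 4 of the effector lines. Of 15 tested iron genes 1 fell, VTL1 (AT1G21140), which is related to vacuolar iron transporters and stood at 5.25, 3.60, 3.35 and 4.18 CPM in Control and between 0.623 and 3.17 CPM (median 1.59) in the effector lines, and 2 fell without Mlp37347 4.

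Of 17 auxin and growth genes PIN3, an auxin exporter, and PIL1, a shade-induced factor, fell in edgeR, against 4.98% of all loci tested. Of the 17, 8 differed between both effector lines, against 2.63% of all loci tested. PIL1 (AT2G46970) stood at 46.5, 43.6, 34.8 and 40.9 CPM in Control, 0.810, 1.15, 0.665 and 5.25 CPM in Mlp37347 and 25.8, 29.5, 27.2 and 51.7 CPM in Mlp124499, so its pooled fold change averages unlike lines. The lower calls were 8 without Mlp37347 4 and 1 without any one Control library, Mlp37347 1, 2 or 3, or Mlp124499 1 or 2, and 1 higher call appeared without Mlp124499 4. Of 8 tested senescence genes edgeR called 0, against 0 higher and 3 lower at an unadjusted p under 0.05, and DESeq2 called 0 higher and 2 lower. The lower calls were 1 without Control 4 or Mlp124499 4 and 4 without Mlp37347 4. 

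Among markers of other tissues, the root endodermis gene SCR (AT3G54220), which leaves also use around their veins, stood at 60.2, 46.1, 45.2 and 44.2 CPM in Control and between 20.2 and 41.8 CPM (median 27.7) in the effector lines. It fell by 0.79 on the log2 scale and was the sole separated gene of 7 root markers, of which 3 were tested. All loci tested give 3.01% below Control. SCR lost its call without Control 1 or 2. Root markers had 1 higher call without Mlp37347 4. The summed level of the root marker list was 163 to 266 CPM in Control and 211 to 456 CPM in the effector lines, and that of 5 flower markers was 3.82 CPM or less in every library. The part of other tissues in the separated loci was not tested.

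Neither set of reference genes had a separated member, against 4.68% of all loci tested. Of 11 traditional reference genes TUA5, a tubulin gene, rose in edgeR (fold change 0.87 ± 0.24, adjusted p = 0.0429), with a list median of 0.36, and the call was lost without Control 1, 2 or 3, Mlp37347 1, 2 or 3, or Mlp124499 1 or 2. Of 11 reference genes chosen from arrays edgeR called 0, with 0 at an unadjusted p under 0.05 and 0 in DESeq2, and the median was 0.16. Fold changes of the separated loci are relative to the TMM scale, on which both medians lie above 0.

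The rule did not use the contrast between both effector lines, but it used the same 8 libraries, which all had to lie on one side of Control. The counts and p-values of that contrast among separated loci are therefore a description. Of the 893 tested separated loci, 19 differed between Mlp37347 and Mlp124499 (edgeR adjusted p under 0.05), or 2.13%, against 2.63% of all loci tested. Of the 19, 6 were higher in Mlp37347 and 13 lower, against 1.11% and 1.53% of all loci tested. Above Control 9 of 319 differed, and below it 10 of 574. The median absolute log2 difference between lines was 0.21 above and 0.30 below Control, against 0.29 over all loci tested. At an unadjusted p under 0.05, 44 above and 99 below differed, and DESeq2 called 57 of the 893. The shares over all loci tested by these measures are not given here. The 2.63% is an edgeR share at an adjusted p, so it is no background for these counts. A p that misses the threshold does not show that the lines act alike.

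The separated locus with the largest difference between lines was CML42, with a log2 difference (Mlp37347 minus Mlp124499) of 5.02 ± 0.52 (edgeR adjusted p = 0.000844). COR15B was higher in Mlp124499, with -3.87 ± 0.80 (edgeR adjusted p = 0.0241). FT (AT1G65480), the mobile signal that induces flowering, stood at 2.43, 1.44, 1.01 and 2.08 CPM in Control, 0.554, 0.470, 0.665 and 0.178 CPM in Mlp37347 and 0, 0.0822, 0.0764 and 0.0651 CPM in Mlp124499. Its difference of 2.88 ± 0.64 (edgeR adjusted p = 0.0347) rests on few counts in Mlp124499, where library 1 held 0. PRN (AT3G59220), a pirin that binds a G protein subunit, stood at 5.0, 6.54, 4.96 and 6.54 CPM in Control, 0.341, 0.574, 0.166 and 0.534 CPM in Mlp37347 and 1.09, 1.48, 2.98 and 3.58 CPM in Mlp124499, a difference of -2.48 ± 0.44 (edgeR adjusted p = 0.0118). AT1G52565, annotated as a cytochrome P450 family protein, stood at 8.33, 9.62, 11.3 and 8.22 CPM in Control, 0.852, 0.626, 0.498 and 0.801 CPM in Mlp37347 and 2.99, 1.48, 3.82 and 7.23 CPM in Mlp124499. In PRN and AT1G52565 the Mlp37347 libraries lay farther below Control than any Mlp124499 library. The calls of CML42, PRN and AT1G52565 against Control were lost when all 8 effector libraries were fitted as 1 group.

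The number of separated loci that differed between lines was 7 of 933, 8 of 941 and 8 of 964 without Mlp37347 1, 2 and 3. Without Mlp37347 4 it was 145 of 1331. It was 9 of 961, 10 of 949 and 12 of 1142 without Mlp124499 1, 2 and 3. Without Mlp124499 4 it was 90 of 1803, and without both libraries numbered 4 it was 529 of 2490. Each denominator is the tested loci separated in that reduced set of libraries, against 893 in the main set. The shares over all loci tested in these sets are not given here.

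**Figure D5:**
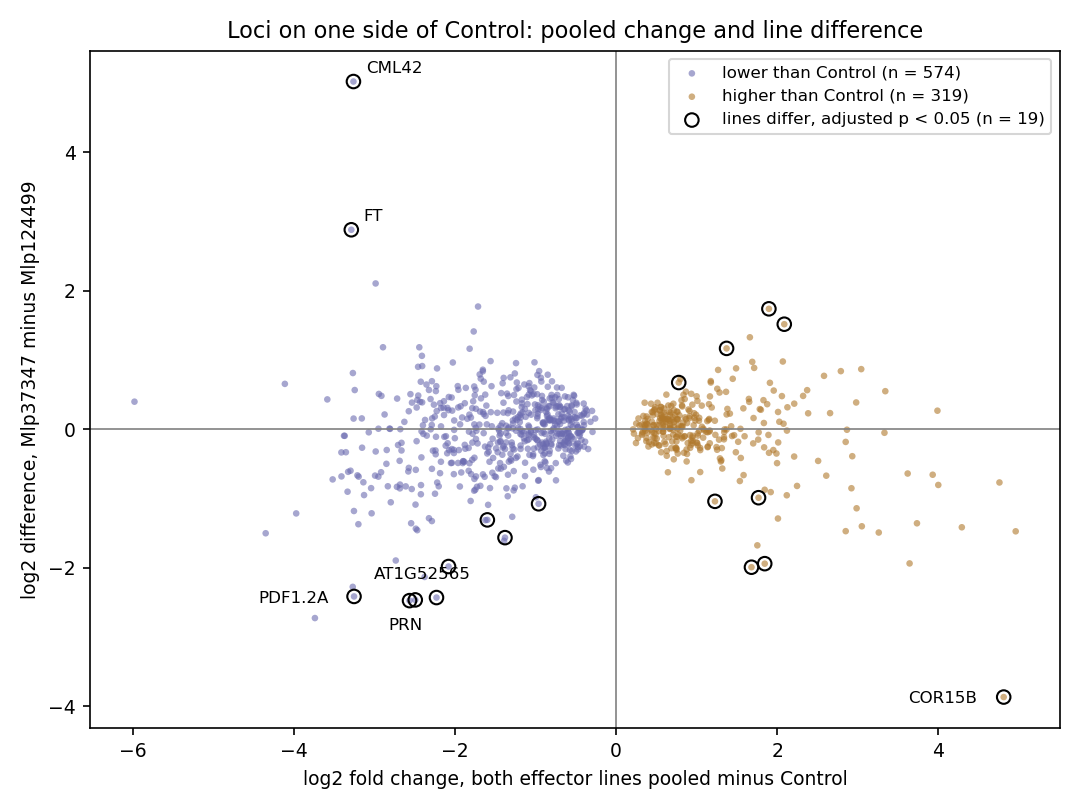
Each tested separated locus by its log2 fold change of both effector lines pooled against Control (horizontal axis) and its log2 difference Mlp37347 minus Mlp124499 (vertical axis). Points that differ between lines at an edgeR adjusted p under 0.05 are marked, 19 of 893, and CML42 at 5.02 is the highest of them.

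Loci of at least 10 CPM on average on either side of the rule's limit had unlike fold changes, such as 0.25 ± 0.13 for AT1G26190 inside it and 1.31 ± 0.20 for GATL7 outside it. Just inside above Control lay AT1G26190, GAUT15 and VAB3, and just outside lay SWI3B, AT3G61550 and GATL7. VAB3 (AT1G20260), a subunit of the vacuolar proton pump, stood at 103, 141, 131 and 125 CPM in Control and between 141 and 211 CPM (median 192) in the effector lines. GATL7 (AT3G62660), a galacturonosyltransferase-like protein, stood at 28.3, 34.4, 26.1 and 39.2 CPM in Control and between 39.1 and 110.3 CPM (median 82.8) in the effector lines, and overlapped through Mlp124499 4 alone. Just inside below Control lay MSL2, AGO2 and AT3G13070, and just outside lay XIH, AT5G23850 and AT5G54170. AGO2 (AT1G31280), an Argonaute protein of antiviral defence, stood at 20.9, 18.1, 19.4 and 17.6 CPM in Control and between 11.2 and 17.6 CPM (median 14.6) in the effector lines. XIH (AT4G28710), a myosin, stood at 122, 89.3, 83.8 and 79.6 CPM in Control and between 48.6 and 79.6 CPM (median 53.6) in the effector lines, where Mlp37347 4 lay just above Control 4.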

How the data were processed

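RNA was measured in 12 libraries of pooled aerial tissue, 4 for each of 3 transgenic lines. Per the series' design text and the labels' protocols, libraries were made from 100 ng of total RNA with a stranded mRNA kit and read as pairs of 100 nt. Trimming used Trimmomatic, and TopHat2 2.0.14 placed the pairs on TAIR10, per the submitters' processing notes. Per the series' design text, the authors counted pairs over Ensembl Plants transcripts in R 3.2.5, using the union mode of GenomicAlignments, and they deposited raw counts per locus. A further deposited table gives each library's read numbers and mate inner distance.

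Computed here were TMM scaling, filterByExpr over the 3 groups and 1 quasi-likelihood fit of all 12 libraries in edgeR 4.0.16 under R 4.3.3. The contrast was the mean of both effector lines minus Control, with Benjamini-Hochberg adjustment over 19090 loci and a threshold of 0.05. A second contrast compared both lines directly. The standard error of a fold change was derived from its F statistic. Separated loci and the gap were computed from TMM-scaled CPM. Of 32833 identifiers 32548 matched RefSeq TAIR10.1 locus tags, which gave names and promoter windows.

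Named were the 15 called separated loci with the widest gap in each direction, up to 3 separated members per gene list, separated reference genes, the 3 loci nearest to the limit on each side among those of at least 10 CPM on average, and the 5 with the largest called difference between lines. The members and the 22 lists were chosen with earlier results of these data known. The alternatives were different scalings and filters, a test in DESeq2 1.42.0, a replicate block, the mate inner distance as a covariate, a threshold of 0.01, summed libraries and leaving out each library. Same-numbered libraries did not pair. The promoter window of 1 locus below Control is not reported here.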

Additional observations from a re-analysis of the deposited data

Results flagged for a closer look

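Of 183 groups of 4 libraries, for 61 loci named above, 19 held a library flagged by Dixon's test. The gap of such a library to its nearest neighbour exceeded the critical share of the group's range. Chance gives about 1 in 20 for independent groups. These groups share the same 12 libraries and their loci were chosen on these values, so 19 of 183 cannot be judged against that rate. In 11 of the 19 the flagged library was Mlp37347 4. The gap as a share of the range was 0.91 for IGMT5, 0.934 for AT1G30250, 0.885 for COR15B, 0.931 for PER4 and 1 for ARI12. It was 0.901 for GI, 0.961 for LNK2, 0.902 for CDF2, 0.887 for ERD7, 0.986 for COR413-PM1 and 0.838 for CYP81F2. Mlp37347 4 was the highest of its line for all of these but IGMT5, where it was the lowest.

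Control 1 stood apart for PLAT1 (0.889), SCR (0.882) and CHS3 (0.939), and Control 4 for RPP1 (0.92). Mlp124499 4 stood apart for AT3G63380 (0.936) and CRK39 (0.842), Mlp124499 3 for PAD3 (0.855) and Mlp37347 2 for CML37 (0.871).

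For 7 of the 61 loci the response against Control differed between both lines in edgeR (adjusted p under 0.05), against 2.63% of all loci tested. Of these, the 5 loci CML42, COR15B, FT, PRN and AT1G52565 were named for that difference. Their place here follows from the selection, and the number 7 is a description. The log2 difference, Mlp37347 minus Mlp124499, was 5.02 for CML42 and 2.88 for FT. It was -0.99 for CYP76C1, -3.87 for COR15B, -2.42 for PDF1.2A, -2.48 for PRN and -2.47 for AT1G52565. Among these the genes COR15B and CYP76C1 lay above Control and stood higher in Mlp124499.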

How the results depend on the processing

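Counts are given as pooled higher and lower, separated higher and lower, and separated loci that differed between lines, from 465, 951, 319, 574 and 19. Total-count scaling gave 1473 lower, 185 and 878 separated and 31 between lines. Array-chosen reference genes gave 263, 1520, 117 and 1027. DESeq2 gave 998 higher and 57 between lines, and a threshold of 0.01 gave 136, 398 and 5. The mate inner distance as a covariate gave 456 lower and 4 between lines, but it largely follows the Mlp37347 line and cannot be cleanly told apart from it. Without both effector libraries numbered 4 the counts were 1824, 2727, 1072, 1418 and 529. Summing close libraries gave 64 and 208, and 0 between lines in edgeR, against 62 at an unadjusted p under 0.05. Chosen after seeing the data, leaving out Control 1 and 4 gave 113, 463, 1059, 1248 and 30. Leaving out 1 library at a time gave 166 to 1085, 489 to 1788, 377 to 747, 533 to 1056, and 7 to 145. With fewer libraries the rule for separated loci is easier to meet, so higher counts of them do not measure sensitivity to the libraries left out. With the replicate number as a block the counts were 212 and 605 pooled and 7 between lines. Same-numbered libraries of different lines correlated at -0.40 to 0.11 and others at -0.44 to 0.57, so the numbers were not taken as pairs. The cause of these changes was not tested.

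For 73 named loci and 25 other settings, 0 of 1824 fold changes reversed, 101 lost their call and 27 gained one, at 23 loci for the losses. Most of these loci were named because all 8 effector libraries lay on one side of Control in these same data. A reversal was therefore unlikely from the start, and its absence does not measure robustness. In Mlp37347 the close libraries limit how far these p-values can be read, and depth limits loci under about 1 CPM.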
